A study of Mus musculus with 12 samples.

Results

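The 37 genes of the mouse mitochondrial genome are described here in cultured bile duct epithelium. They were taken as every row of the deposited count table whose Ensembl identifier maps to a symbol beginning with mt-, which gave 13 mRNAs, 2 ribosomal RNAs (rRNAs) and 22 transfer RNAs (tRNAs) out of 53700 rows. The 12 libraries came from intrahepatic cholangiocyte organoids, hollow balls of bile duct cells grown from mouse liver in domes of Matrigel, a basement membrane gel; all were untreated and harvested at passage 5. Each of 6 mice gave a pair of cultures, 1 hilar (near the point where the large ducts leave the liver) and 1 peripheral. Of these mice, 3 were wild-type for Jag1 (WT; 1221, 1223 and 1225) and 3 carried the Ndr allele on both copies of that gene (Jag1 Ndr/Ndr; 1219, 1220 and 1224), which changes 1 amino acid of a Notch ligand and models Alagille syndrome, a disorder of bile duct formation. The 4 groups (WT hilar, WT peripheral, Ndr hilar and Ndr peripheral) held 3 cultures each. Strain, age and sex are not in the labels. Mice 1221 and 1223 were used on day 15 of June, 1219 on day 17, 1220 on day 18, and 1224 and 1225 on day 21, so a single date held both genotypes.

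The mitochondrial genome encodes only core subunits of the respiratory chain and ATP synthase, together with the rRNAs and tRNAs that translate them; every other mitochondrial protein is made from nuclear genes. Both DNA strands are read as long precursors, and the tRNAs that lie between the coding genes are cut out, which frees the mRNAs and rRNAs. Most of the mRNAs then receive a short poly(A) tail, and for some of them that tail completes the stop codon. Of the 37 genes, 28 lie on the strand read as the main precursor, and 9 on the opposite strand (mt-Nd6 and 8 tRNAs).

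The library kit (TruSeq RNA v2) selects polyadenylated RNA in its standard protocol. Whether the encoded 3′ ends of the mRNAs relate to their capture or counts was not tested. The last 30 bases of 4 mRNAs are shown, read from GENCODE M21 transcripts (GRCm38), with the stop codon or its remainder in capitals. In mt-Co3, mt-Nd4 and mt-Cytb the gene ends in a single T, to which added A residues complete a stop codon; mt-Co1 carries its own.

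mt-Co1: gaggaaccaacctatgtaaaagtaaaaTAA
mt-Co3: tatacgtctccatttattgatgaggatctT
mt-Nd4: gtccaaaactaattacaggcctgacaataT
mt-Cytb: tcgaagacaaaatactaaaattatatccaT

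A further pair of sequences shows why some of the counts below are uncertain. The nuclear pseudogene Gm28438 is a copy of mt-Nd3, a subunit of complex I, and over 345 aligned bases the only difference is T3C (the base of mt-Nd3, its position from the 5′ end, then the base of the copy). The first 17 bases are printed with that position in capitals.

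mt-Nd3: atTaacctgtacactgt
Gm28438: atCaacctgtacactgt

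The tRNA genes that collected most tRNA counts are printed with the anticodon in capitals, found by its stem-loop. mt-Tp carries proline, mt-Tc cysteine, mt-Tn asparagine and mt-Te glutamate, and all 4 lie on the opposite strand.

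mt-Tp: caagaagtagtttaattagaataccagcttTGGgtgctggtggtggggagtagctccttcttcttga
mt-Tc: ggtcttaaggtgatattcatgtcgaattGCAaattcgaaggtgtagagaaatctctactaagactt
mt-Tn: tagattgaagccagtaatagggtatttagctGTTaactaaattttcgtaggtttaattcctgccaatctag
mt-Te: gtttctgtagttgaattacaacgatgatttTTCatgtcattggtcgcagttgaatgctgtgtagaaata

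Libraries held 6708822 to 16030880 assigned counts. Cholangiocyte markers (14 of 14 tested) summed to 12079 to 22193 CPM (counts scaled to a common library size, with TMM factors), hepatocyte markers to 157 to 408 CPM, of which Hnf4a, a factor of liver epithelia, reached 300.2 CPM at most, immune markers to 10.6 to 45.3 CPM, fibroblast and stellate markers to 0.377 to 28.9 CPM and endothelial markers to at most 0.618 CPM. Dcn, Lum, Thy1, Kdr, Clec4g, Adgre1 and Clec4f were at 0 in all 12 libraries. By these markers the cultures were bile duct epithelium, as labelled. Ndr peripheral 1219 stands apart in mitochondrial counts, as given next, and the main ranges, medians and directions that depend on it are also given without it.

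The mitochondrial share of all assigned counts spanned a 7.4-fold range, from 0.582% in WT hilar 1225 (95% Wilson interval 0.577 to 0.587) to 4.31% in Ndr peripheral 1219 (4.3 to 4.32), with a median of 0.895%; these intervals cover counting error only. Without Ndr peripheral 1219 the range was 3.9-fold. In WT hilar cultures the share was 0.879% (1221), 0.601% (1223) and 0.582% (1225), a mean of 0.688 ± 0.166 (SD, n = 3). WT peripheral cultures from the same mice had 2.27%, 1.82% and 0.872%, or 1.65 ± 0.713. Each WT mouse had more in its peripheral than in its hilar culture, although the groups touch, since peripheral 1225 lies just under hilar 1221.

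Ndr cultures did not share that order. Ndr hilar cultures had 0.91% (1219), 0.852% (1220) and 1.96% (1224), a mean of 1.24 ± 0.626 (n = 3), and Ndr peripheral cultures 4.31%, 0.685% and 1.05%, a mean of 2.01 ± 2.0. Peripheral exceeded hilar in mouse 1219 and was below it in mice 1220 and 1224, so the higher peripheral mean came from 1 library. The mouse totals, with both cultures summed, were 1.17% ± 0.384 in WT and 1.58% ± 0.927 in Ndr mice and overlapped. On day 21, the date with both genotypes, Ndr mouse 1224 was above WT mouse 1225 in hilar cultures (1.96% against 0.582%) and in peripheral cultures (1.05% against 0.872%).

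**Figure D1:**
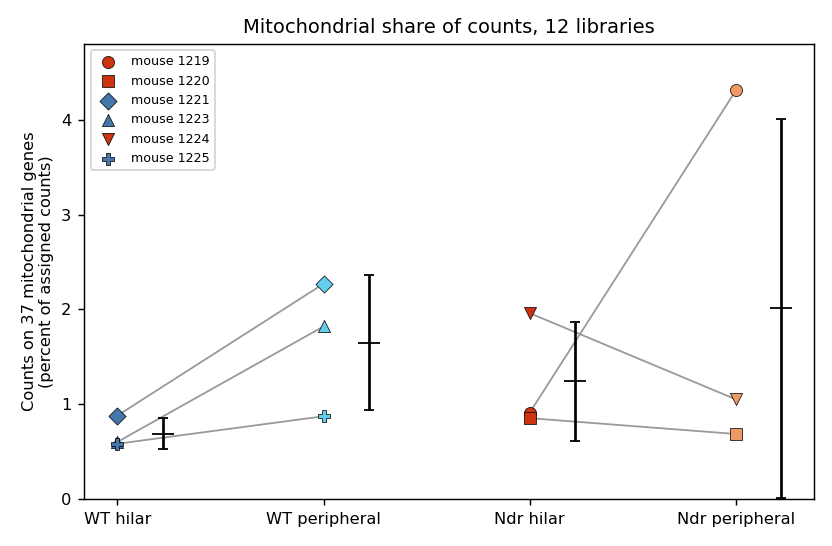
Percent of assigned counts on the 37 mitochondrial genes (y axis) in each library, by group (x axis). Each symbol is a mouse, a grey line joins its 2 cultures, and black bars are the mean and SD of 3 cultures. The 3 WT lines and that of mouse 1219 go up from hilar to peripheral, and those of mice 1220 and 1224 go down.

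By class, the mRNAs made up 93.5% to 98.6% of the mitochondrial counts, the rRNAs 1.06% to 6.09% and the tRNAs 0.104% to 0.511%. The 13 mRNAs were all measured in every library, but they are cut from shared precursors and share each library's total, so they are not independent of each other. The largest single count was on mt-Co1, the catalytic core of complex IV, at 34.8% of the mRNA counts on average. mt-Co3 and mt-Co2, the other mitochondrial subunits of that complex, took 12.4% and 6.32%. These shares, and those of the other mRNAs below, leave out counts on the nuclear pseudogenes described later. The median ratio of pseudogene to gene counts was 0.196 for mt-Co1, 1.06 for mt-Co3 and 1.02 for mt-Co2. The shares of these mRNAs relative to each other are therefore uncertain.

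mt-Co1 followed the whole. It stood at 2692, 2101 and 1894 CPM in WT hilar cultures of mice 1221, 1223 and 1225, and at 9037, 5998 and 2967 CPM in the peripheral cultures of the same mice. In Ndr hilar cultures it stood at 2636 (1219), 2501 (1220) and 7031 CPM (1224), and in Ndr peripheral cultures at 17844, 1951 and 4011 CPM. WT peripheral cultures were all above WT hilar cultures, while the Ndr groups overlapped, with both the highest and the second lowest of all values among Ndr peripheral cultures.

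The region comparison asks whether cells from the hilum and the periphery differ. In WT organoids all 13 mRNAs were lower in hilar cultures, by a median log2 difference of -1.38 (range -1.49 to -0.24), where the median of the 15014 tested genes was 0.03 and 53.9% of them were above 0. None passed edgeR's quasi-likelihood test with Benjamini-Hochberg adjustment, and nor did any other of the 20 members tested; percent called over all genes was 0 (0 of 15014). The fitted difference of mt-Co1 was -1.43 (SE 0.75, adjusted p = 1), and of mt-Co2 -1.49 (SE 0.671), the only member with an unadjusted p under 0.05 (0.0476), as 0.506% of all genes had. DESeq2 also called 0 genes here, or 0%; of the 36 members it tested, 11 had an unadjusted p under 0.05, as had 0.511% of its 28375 genes.

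Groups that do not overlap were found for 6 of the 13 mRNAs in that comparison (mt-Co1, mt-Co2, mt-Co3, mt-Nd2, mt-Atp6 and mt-Atp8), all lower in hilar cultures, where 2.6% of tested genes did the same. mt-Nd2 was separated narrowly, with 429 CPM in WT hilar 1221 and 432 CPM in WT peripheral 1225. mt-Nd1 overlapped as narrowly, at 629 and 627 CPM in the same libraries. mt-Cytb, the mitochondrial subunit of complex III, overlapped by more. Its WT hilar values were 861, 462 and 467 CPM, and its peripheral values were 2311, 1763 and 682 CPM, in the order 1221, 1223, 1225.

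In Ndr organoids the same 13 mRNAs were lower in hilar cultures by a median of -0.79 (range -0.98 to -0.10), where 48.7% of tested genes were above 0. No member was free of overlap between the groups, as 15.4% of tested genes were. Again 0 members and 0 of 15014 genes (0%) were called by edgeR, and 10.3% of genes had an unadjusted p under 0.05 but 0 members. DESeq2 called 0.47% of genes (79) and 0 members. Without Ndr peripheral 1219 the median turned to 0.44. With the mouse as a block, since both cultures come from 1 animal, it was -0.31, with 0 members called.

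Over both genotypes, hilar cultures were lower by a median of -1.10, and -0.79 with the mouse as a block, with 0 of 15014 genes (0%) called by edgeR in either fit and 52.2% of genes above 0. DESeq2 called 2 genes (0.00705%) and 0 members. Without Ndr peripheral 1219 the median was -0.41. At an unadjusted p under 0.05 stood 8 of the 20 members (7 mRNAs and mt-Tl1) by edgeR, where 6.07% of all genes did. The smallest adjusted p among the members was 0.787 (edgeR). Within single mice, the sum of the 13 mRNAs was higher in the peripheral culture by 2.75-fold in 1221, 3.08-fold in 1223, 1.56-fold in 1225 and 4.98-fold in 1219. It was higher in the hilar culture by 1.21-fold in 1220 and 1.69-fold in 1224.

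The difference between the genotypes in the region effect had a median of 0.55 for the mRNAs (0.96 with the mouse as a block, 1.86 without Ndr peripheral 1219), with 46.1% of tested genes above 0 and an SE near 0.93 for a typical mRNA. No gene passed (0 of 15014, 0%; smallest adjusted p of a member 0.994, edgeR), 3% of genes and 0 members had an unadjusted p under 0.05, and DESeq2 called 4 genes (0.0141%) and 0 members. So a region effect that differs between WT and Ndr organoids was not detected for any mitochondrial transcript at this number of cultures.

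**Figure D2:**
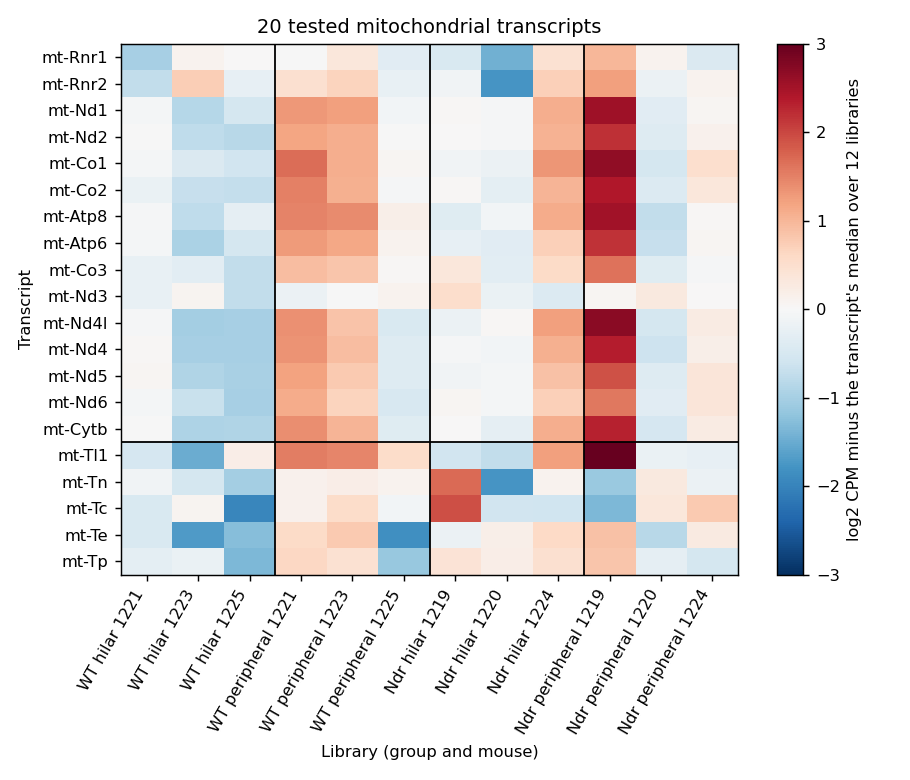
Each of the 20 tested mitochondrial transcripts (rows: 13 mRNAs and 2 rRNAs in genome order, then 5 tRNAs) in each library (columns, by group and mouse), coloured by log2 CPM minus that transcript's median over the 12 libraries. Most mRNA rows change together from column to column, with Ndr peripheral 1219 highest, and mt-Nd3 is near 0 in Ndr peripheral 1219; its lowest cell is WT hilar 1225 and its highest Ndr hilar 1219.

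The genotype comparison asks what the Jag1 change does to the cells. In hilar cultures the 13 mRNAs were all higher in Ndr organoids (median log2 difference 0.86, range 0.29 to 1.10; 49.5% of tested genes were above 0), mt-Co1 by 0.86 (SE 0.741, adjusted p = 0.839, edgeR). None of the 20 members was called, nor any of 15014 genes (0%), and 6.54% of genes but 0 members had an unadjusted p under 0.05; DESeq2 called 44 genes (0.254%) and 0 members. Without Ndr hilar 1224 the median was 0.42. Groups did not overlap for mt-Nd1 and mt-Nd6, both complex I subunits, where 4.57% of tested genes were higher without overlap. mt-Nd6, the sole mRNA of the opposite strand, stood at 162, 106 and 83.9 CPM in WT hilar cultures (1221, 1223, 1225) and at 174, 163 and 276 CPM in Ndr hilar cultures (1219, 1220, 1224). The nearest libraries of the 2 groups, at 162 and 163 CPM, were almost equal. Whether the counting used strand is not given, so counts on mt-Nd6 may include reads from RNA of the other strand.

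In peripheral cultures the median difference was 0.28 (13 of 13 above 0, and 54.5% of tested genes), with 0 of 20 members and 0 of 15014 genes (0%) called by edgeR. Unadjusted, 2.92% of genes and 0 members had a p under 0.05, and DESeq2 called 10 genes (0.0559%) and 0 members. The direction rested on Ndr peripheral 1219: without it the median was -0.94. No member's groups were free of overlap, against 9.02% of tested genes.

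Over both regions, mouse totals gave a median of 0.42 for the mRNAs, all 13 above 0 with 49.3% of tested genes. edgeR called 0 members and 0 of 15401 genes (0%), and 5.42% of genes but 0 members had an unadjusted p under 0.05. DESeq2 called 124 genes (0.652%) and 0 members. No member was free of overlap, and 11.3% of tested genes were. Totals of mt-Co1 were 5418, 4299.8 and 2510.3 CPM in WT mice 1221, 1223 and 1225 and 9806, 2133 and 5301 CPM in Ndr mice 1219, 1220 and 1224. Ndr mice thus held both the highest and the lowest total. Leaving out mouse 1219 turned the median to -0.11. When the date was added to the fit, medians were 1.61 in hilar cultures, 0.66 in peripheral cultures and 0.96 over both, still with 0 members called. In that fit the average difference between genotypes comes from the 2 mice of day 21, and its split by region from all mice. The libraries of mice 1224 and 1225 alone, with no test, gave a median of 1.72 in hilar cultures (13 of 13 mRNAs above 0) and 0.38 in peripheral cultures (9 of 13).

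Beneath this common movement, 1 mRNA kept apart. mt-Nd3 stood at 172, 213 and 121 CPM in WT hilar cultures (1221, 1223, 1225), at 179, 200.4 and 218 CPM in WT peripheral cultures, at 291, 175 and 153 CPM in Ndr hilar cultures (1219, 1220, 1224) and at 209, 249.6 and 204 CPM in Ndr peripheral cultures. Its highest library was 2.4 times its lowest, where the other 12 mRNAs ranged from 5.19-fold (mt-Co3) to 13.1-fold (mt-Nd4l, a small complex I subunit). Without Ndr peripheral 1219 the other 12 ranged from 3.16-fold (mt-Co3) to 5.23-fold (mt-Nd4l), and mt-Nd3 was still at 2.4-fold. In Ndr peripheral 1219, where the other mRNAs peaked, mt-Nd3 was close to its median of 202 CPM.

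As a share of the mRNA counts, mt-Nd3 was low where the rest was high, and ranged from 3.86% in Ndr peripheral 1220 to 0.471% in Ndr peripheral 1219. The SD of its log2 share over the 12 libraries was 0.97, and that of its log2 CPM was 0.33. For the other 12 mRNAs the SD of the log2 share lay between 0.08 (mt-Co2) and 0.31 (mt-Co3), and that of log2 CPM between 0.68 and 1.09. Without Ndr peripheral 1219 the lowest share of mt-Nd3 was 0.771%, the SD of its log2 share was 0.8 and that of its log2 CPM 0.34; those of the other 12 lay between 0.08 and 0.27 and between 0.54 and 0.82. Taken against mt-Co1 alone the SD for mt-Nd3 was 1.08, and leaving out single libraries kept the former value between 0.8 and 1.02. Its fitted differences were small, at -0.24 for WT region (SE 0.276, adjusted p = 1), -0.10 for Ndr region (SE 0.276, adjusted p = 0.957) and 0.29 for genotype in hilar cultures (SE 0.276, adjusted p = 0.865; edgeR).

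mt-Co3 came next in departing from the rest. It took 16.8% of mRNA counts in Ndr hilar 1219 and 16.3% in WT hilar 1223 but 8.31% in Ndr peripheral 1219. mt-Nd6 ranged from 2.09% in Ndr hilar 1220 to 1.13% in Ndr peripheral 1219. mt-Atp8 ran from 1.09% to 1.88% (SD of log2 share 0.26) and mt-Nd4l from 0.575% to 0.991% (SD 0.25), about as widely as mt-Nd6 (SD 0.27). The SD was 0.19 or less for the remaining 8 mRNAs. Shares averaged 9.39% for mt-Cytb, 7.65% for mt-Nd1, 7.27% for mt-Atp6, 5.84% for mt-Nd5, 5.51% for mt-Nd4, 4.79% for mt-Nd2, 1.47% for mt-Atp8 and 0.741% for mt-Nd4l.

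The rRNAs also moved apart from the mRNAs. mt-Rnr2, the large-subunit rRNA, stood at 96.8, 272 and 136 CPM in WT hilar cultures (1221, 1223, 1225) and at 227, 258 and 139 CPM in WT peripheral cultures. In Ndr hilar cultures it stood at 149.5, 47.8 and 265 CPM (1219, 1220, 1224), and in Ndr peripheral cultures at 379.9, 143 and 175 CPM. WT hilar 1223, among the libraries poorest in mitochondrial mRNA, was second only to Ndr peripheral 1219 in mt-Rnr2.

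Relative to the mRNA sum, mt-Rnr2 went from 0.611% in Ndr hilar 1220 to 4.67% in WT hilar 1223, and mt-Rnr1, the small-subunit rRNA, from 0.424% in WT peripheral 1221 to 1.84% in WT hilar 1223. Mouse 1220 shows the split most plainly. Its hilar culture had 1.21 times the mRNA of its peripheral culture, while its peripheral culture had 2.99 times the mt-Rnr2 and 2.94 times the mt-Rnr1 of its hilar culture. The fitted mt-Rnr2 differences were -0.31 for WT region (SE 0.591, adjusted p = 1), -0.59 for Ndr region (SE 0.593, adjusted p = 0.809) and -0.12 for genotype in hilar cultures (SE 0.591, adjusted p = 0.988; edgeR). Kits that select polyadenylated RNA leave out most rRNA, and whether capture differed between libraries was not tested.

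**Figure D3:**
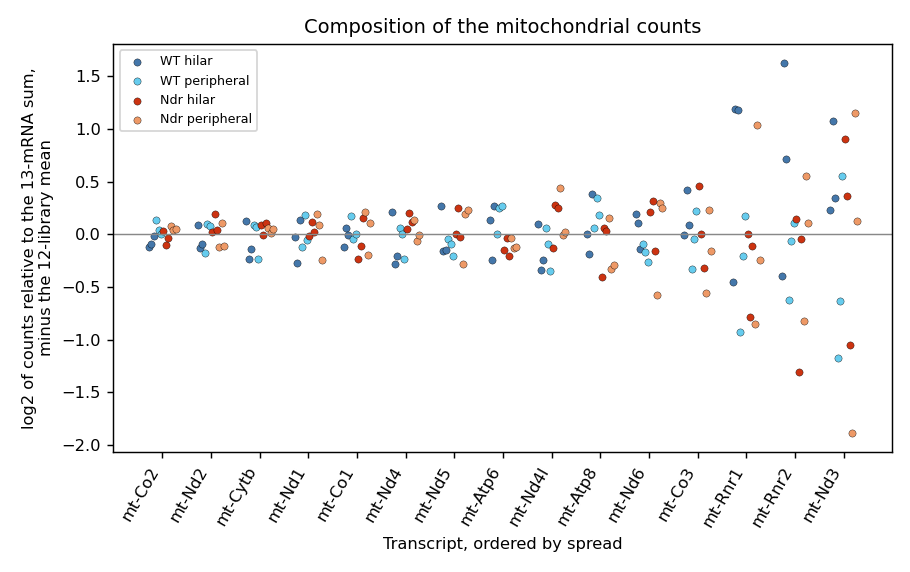
Counts of each mRNA and rRNA relative to the sum of the 13 mRNAs, as log2 minus the 12-library mean (y axis), for each transcript ordered by its spread (x axis); each point is a library, coloured by group. From mt-Co2 (SD 0.08) to mt-Co3 (SD 0.31) the points stay close to 0, and mt-Rnr1, mt-Rnr2 and mt-Nd3 (SD 0.76, 0.77 and 0.97) spread out.

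Of the 22 tRNAs, 21 had at least 1 count and together they held 3592 counts over all libraries. mt-Tf had 0 in every library, which allows up to 0.0254 CPM over the 117955269 counts. The 8 tRNAs of the opposite strand held 95.4% of the tRNA counts and the 14 of the main strand 166 counts. mt-Tp alone had 2518 counts, mt-Tc 411, mt-Tn 227 and mt-Te 180, and mt-Tl1 of the main strand, which carries leucine and lies between mt-Rnr2 and mt-Nd1, had 97. Whether the counting used strand is not given in the sources used here. Reads from a tRNA gene or from mt-Nd6 therefore cannot be told apart from reads of precursor RNA of the other strand.

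mt-Tp ranged from 8.04 CPM in WT hilar 1225 to 36.3 CPM in Ndr peripheral 1219. In hilar cultures it did not overlap between genotypes, at 16.6, 17.8 and 8.04 CPM in WT (1221, 1223, 1225) and 27.1, 23.4 and 28.7 CPM in Ndr (1219, 1220, 1224), with a fitted difference of 0.90 (SE 0.483, adjusted p = 0.752, edgeR). mt-Te did not overlap there either, on 3 to 18 counts a library, and 4.57% of tested genes were likewise higher without overlap. In WT organoids mt-Tl1 and mt-Tn were lower in hilar cultures without overlap, as were 2.6% of tested genes. For mt-Tl1 this rests on 1 to 15 counts a library and for mt-Tn on 7 to 27. mt-Tn and mt-Tc, which are neighbours in the tRNA cluster between mt-Nd2 and mt-Co1, both peaked in Ndr hilar 1219, at 5.8 and 11.1 CPM, and were at 0.826 and 1.14 CPM in the peripheral culture of that mouse. mt-Tl1 had 10 or more counts in 3 libraries (Ndr peripheral 1219, WT peripheral 1221 and 1223), at 3.62, 1.26 and 1.2 CPM.

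Compared per kilobase of gene, mt-Co1 had the highest level, at a mean of 3228 CPM per kilobase over the 12 libraries (CPM here on assigned counts), before mt-Co3 at 1926, mt-Atp6 (an ATP synthase subunit) at 1450.2, mt-Co2 at 1289.9 and mt-Cytb at 1152. Then came mt-Nd1 at 1125, mt-Atp8 at 1019, mt-Nd2 at 619, mt-Nd3 at 569, mt-Nd4 at 566, mt-Nd5 at 419, mt-Nd6 at 409 and mt-Nd4l at 371. The rRNAs closed the list, mt-Rnr2 at 119 and mt-Rnr1 at 102. Complex IV mRNAs were thus above all complex I mRNAs on average. Neighbours that kept this order in 8 or fewer of the 12 libraries were mt-Cytb over mt-Nd1 (6 of 12), mt-Nd2 over mt-Nd3 (4 of 12), mt-Nd3 over mt-Nd4 (8 of 12), mt-Nd1 over mt-Atp8 (8 of 12) and mt-Nd5 over mt-Nd6 (6 of 12).

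The order also moves with the length used. With 50 bases taken off each gene, an alternative length, mt-Atp8 went from seventh to the fifth place at 1349, above mt-Cytb at 1205 and mt-Nd1 at 1186, mt-Nd3 passed mt-Nd2, and mt-Nd6 at 453 and mt-Nd4l at 446 passed mt-Nd5 at 431.

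The order is further uncertain for 7 mRNAs, because nuclear pseudogenes with almost the same sequence collected counts beside them. The 7 pseudogenes lie together on chromosome 1 next to each other, in the reverse order of the mitochondrial genes from mt-Co1 to mt-Nd4. Gm28661, Gm10925, Gm28437, Gm10222 and Gm28439 match mt-Co2, mt-Atp6, mt-Co3, mt-Nd4l and mt-Nd4 at every aligned base (681, 678, 783, 294 and 876 bases). Gm29216 aligns to the last 492 bases of mt-Co1 with 6 differences, all between positions 1056 and 1066.

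Counts on these pseudogenes tracked their mitochondrial counterparts in all 12 libraries. Gm28661 held 0.997 to 1.05 times the counts of mt-Co2, Gm28437 1.01 to 1.08 times those of mt-Co3, Gm28438 0.967 to 1.15 times those of mt-Nd3 and Gm10222 0.922 to 1.1 times those of mt-Nd4l. Gm10925 held 1.28 to 1.39 times those of mt-Atp6, a gene that shares 43 bases with mt-Atp8. For the partial copies the ratio was 0.4 to 0.451 (Gm28439 to mt-Nd4) and 0.165 to 0.229 (Gm29216 to mt-Co1). How reads that match both places were treated is not given in the sources used here, so the counts of each pair cannot be told apart.

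With the pairs summed, an alternative chosen after seeing the data, the per-length order changed: mt-Co3 came first at 3955, mt-Co1 at 3840.4, mt-Atp6 at 3405 and mt-Co2 at 2607, and mt-Nd3 moved from ninth to the fifth place at 1169.6. The mitochondrial share became 0.823% to 5.87%. The flat level of mt-Nd3 was shared by Gm28438 (138 to 321 CPM), and with the pair summed the SD of its log2 share was 0.94. Median log2 differences of the 13 mRNAs moved by at most 0.02 in the 7 comparisons, and 0 members were called.

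**Figure D4:**
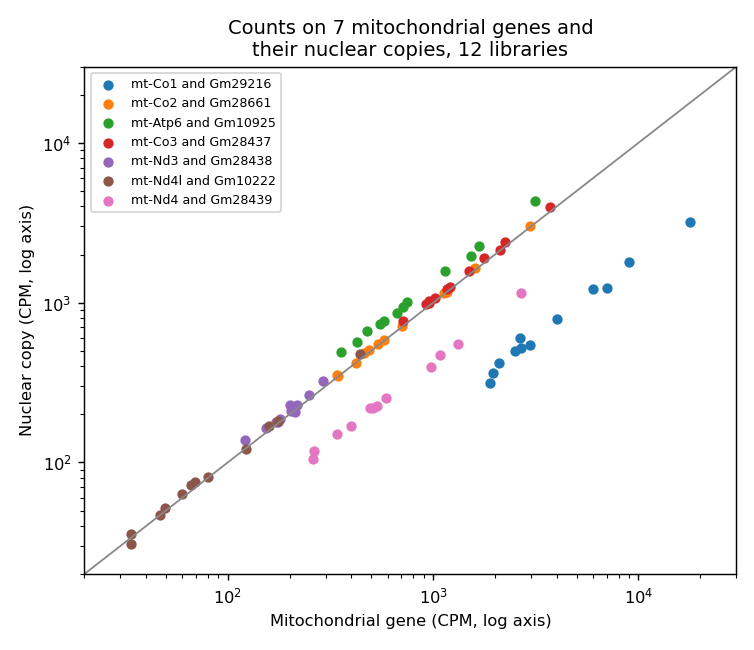
CPM of 7 nuclear pseudogenes (y axis, log) against their mitochondrial counterparts (x axis, log), 1 point per library and pair; the grey line marks equal values. Points for mt-Co2, mt-Co3, mt-Nd3 and mt-Nd4l lie on or next to the line, those for mt-Atp6 above it and those for mt-Nd4 and mt-Co1 below it.

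Nuclear genes that serve the mitochondrion were measured in the same libraries, by lists chosen with earlier results known. Of 24 nuclear-encoded respiratory chain and ATP synthase subunits, 23 were tested and 0 were called by edgeR in any of the 7 comparisons. In WT organoids 22 of the 23 were higher in hilar cultures (median log2 0.18, all genes 0.03), and in Ndr organoids all 23 were lower in hilar cultures (median -0.16, all genes -0.01). The most abundant, Atp5b, the catalytic beta subunit of ATP synthase, had 1220.3 ± 284 CPM in WT hilar, 1076 ± 126 in WT peripheral, 956 ± 291 in Ndr hilar and 1271 ± 341 in Ndr peripheral cultures (n = 3 each). Atp5a1, the alpha subunit, had 930 ± 128, 870 ± 45.2, 818 ± 101 and 977 ± 122 CPM in the same order.

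The summed nuclear subunits went the other way from the mitochondrial mRNAs in 5 of 6 mice. In mouse 1219 they were at 5776 CPM in the hilar and 4366 CPM in the peripheral culture, in 1223 at 5129 and 3968, and in 1225 at 5445 and 4602, all higher where the mitochondrial mRNAs were lower. In mice 1220 and 1224 they were at 3587 and 3803 CPM in hilar and at 6444 and 4780.1 CPM in peripheral cultures, again against the mitochondrial mRNAs. Mouse 1221 was the exception, with 3976 and 4465 CPM. The same 5 of 6 mice showed an opposite direction for the mitochondrial translation list (18 of 19 tested), which spanned 495 to 792 CPM. They did so too for the list of mitochondrial RNA processing and stability factors (25 of 25 tested), 846 to 1089 CPM. In that list 1224 was almost level (871 CPM hilar, 880 peripheral), and 1223 nearly so (912 and 885). Cholangiocyte and hepatocyte markers were opposite in 3 of 6 mice. Such counts of mice carry no test, and no share over all genes was computed for them. Other lists ran with the mitochondrial mRNAs. The immune markers, between 10.6 and 45.3 CPM in all, had the same direction in 6 of 6 mice, by 33.4 hilar against 10.6 CPM peripheral in 1220, 45.3 against 30.7 in 1224, 15.1 against 22.5 in 1219 and 15.4 against 25.2 in 1225, and were almost level in 1221 (22.3 and 22.9) and 1223 (21.0 and 21.6). RNAs kept in the nucleus (6 of 7 tested) had the same direction in 5 of 6 mice, with 1221 the exception, and endothelial markers, at most 0.618 CPM, also in 5 of 6. The nuclear RNAs summed to 961 CPM in Ndr hilar 1220 and 616 CPM in Ndr hilar 1224, against 168 to 429.9 CPM in the other 10 libraries. Their median log2 difference between genotypes in hilar cultures was 1.31 (all genes 0), with 4 of 6 at an unadjusted p under 0.05 and 0 called by edgeR. Malat1, the most abundant of them in Ndr hilar cultures, stood there at 253 ± 168 CPM, and in the WT hilar group at 82.5 ± 44.6 CPM (n = 3). The part of these RNAs in the mitochondrial values was not tested. All these sums share library size with the mitochondrial counts, which at their highest were 4.31% of a library.

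The mitochondrial DNA replication and transcription list (19 of 19 tested) summed to 338 to 414 CPM. Its single genes differed by log2 -0.59 to 0.73 between regions in Ndr organoids, so movements in both directions enter the sum. The part of these genes in the mitochondrial values was not tested. Tfam, which packages mitochondrial DNA and starts its transcription, had 58.1 ± 3.95 CPM in WT hilar, 55.1 ± 4.29 in WT peripheral, 58.4 ± 18.2 in Ndr hilar and 65.0 ± 16.4 in Ndr peripheral cultures. Polg, the catalytic subunit of the mitochondrial DNA polymerase, had 32.4 to 56.4 CPM. Grsf1, which binds mitochondrial RNA in processing granules, had 105 to 160.3 CPM, and Hsd17b10, a subunit of the enzyme that cuts the 5′ ends of tRNAs, 53.0 to 126 CPM. Of the translation list, Mrpl12, a ribosomal protein, had 40.4 to 162 CPM and Oxa1l, which inserts new subunits into the inner membrane, 46.1 to 87.0 CPM. Among regulators of mitochondrial biogenesis (9 of 10 tested), the most abundant were Yy1 at 142 to 224 CPM and Myc at 82.2 to 192 CPM. The mitochondrial stress response list (15 of 16 tested) was higher in WT hilar than in WT peripheral cultures for 15 of 15 genes, with a median log2 of 0.64 (all genes 0.03); without WT hilar 1225 it was 12 of 15 and 0.44. The sum was 2771 against 1122 CPM in mouse 1225 and 1579.8 against 1314 in 1223, but 941 against 1006 in mouse 1221. Its member Atf4, the transcription factor of that response, had 337 ± 164 and 184 ± 64.1 CPM there. Hspd1, a chaperone of the mitochondrial matrix, had 322 ± 203 and 240.1 ± 5.53 CPM. No member of these lists was called in any of the 7 comparisons by edgeR.

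Other processes differed between the libraries as well. Glycolysis and hypoxia genes (20 tested) all had a fitted difference below 0, hilar minus peripheral, in both genotypes. Their median log2 was -0.50 in WT and -1.04 in Ndr organoids, where 53.9% and 48.7% of all tested genes were above 0. Their sum was lower in the hilar culture of every mouse but WT mouse 1223 (6349.5 CPM hilar, 5428 peripheral). Pkm, a pyruvate kinase, had 918 ± 208 CPM in Ndr hilar against 2349 ± 621 CPM in Ndr peripheral cultures. Aldoa, an aldolase, had 885 ± 417 and 1809 ± 704 CPM in these. Proliferation genes (16 tested) summed to 451 to 745 CPM in Ndr hilar, 1181 to 1961 in Ndr peripheral, 489 to 2881 in WT hilar and 992 to 1235 in WT peripheral cultures. Of these, Top2a, a topoisomerase of dividing cells, had 67.1 ± 19.7 CPM in Ndr hilar and 257 ± 57.3 CPM in Ndr peripheral cultures, and Mcm6, a replication helicase subunit, 99.7 ± 9.4 and 166 ± 14.4 CPM. None of these genes was called by edgeR either. Their part in the mitochondrial values was not tested, and in bulk RNA fewer mitochondria, less RNA per mitochondrion and a shift in cell state cannot be told apart.

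The authors' table of normalized values gave the mitochondrial transcripts another pattern. From raw counts to that table, the share of the 13 mRNAs was multiplied by 0.522, 0.767, 0.405 and 0.716 in the 4 libraries of day 15 (WT hilar and peripheral 1221, then 1223), and by 0.677 and 0.702 in the pair of day 17 (hilar and peripheral 1219). The pair of day 18 was multiplied by 2.28 and 2.51 (1220), and the 4 libraries of day 21 by 1.17 to 1.29. All libraries of a date were thus moved in 1 direction. Running ComBat-seq, a batch adjustment for counts, with the 4 dates as batches while keeping genotype, and then DESeq2 size factors, gave the deposited value within 1% in 100% of the 432 mitochondrial cells, against 35% for size factors alone; no label records that step.

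After this change the genotypes separated. The normalized sum of the 13 mRNAs per mouse was 201541, 138886 and 161481 in WT mice 1221, 1223 and 1225 and 337264, 329952 and 329241 in Ndr mice 1219, 1220 and 1224, 3 nearly equal values. The same sums from raw counts were 14789, 12648 and 7256 CPM and 25638, 6877 and 13938 CPM, which overlap. In these raw-count sums, which carry TMM factors, mouse 1220 is the lowest of the 6. By unscaled share of counts mouse 1225 was lower, with 0.717% on the 13 mRNAs against 0.731% in 1220. In the normalized table mouse 1220 is the second highest.

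On log2(normalized value + 1), limma-trend called 16 of the 20 tested members higher in Ndr mouse totals, where 46.8% of all tested genes were called in either direction, and 9 of 20 in hilar cultures, where 9.63% were. It called 0 members in peripheral cultures, where 0.619% of genes were called, and 0 in the region comparisons and the interaction (0% of genes in WT, 0.0599% in Ndr organoids, 0.0266% over both genotypes and 0.0133% for the interaction). mt-Co1 differed by 1.15 (adjusted p = 0.0076, limma) in these mouse totals, against 0.50 (SE 0.559, adjusted p = 0.92, edgeR) from raw counts. mt-Nd3 was not called in that table (0.06, adjusted p = 0.627, limma). An adjustment that keeps genotype while removing dates, when a single date holds both genotypes, uses the genotype labels, so a test of genotype on its output is no separate evidence.

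**Figure D5:**
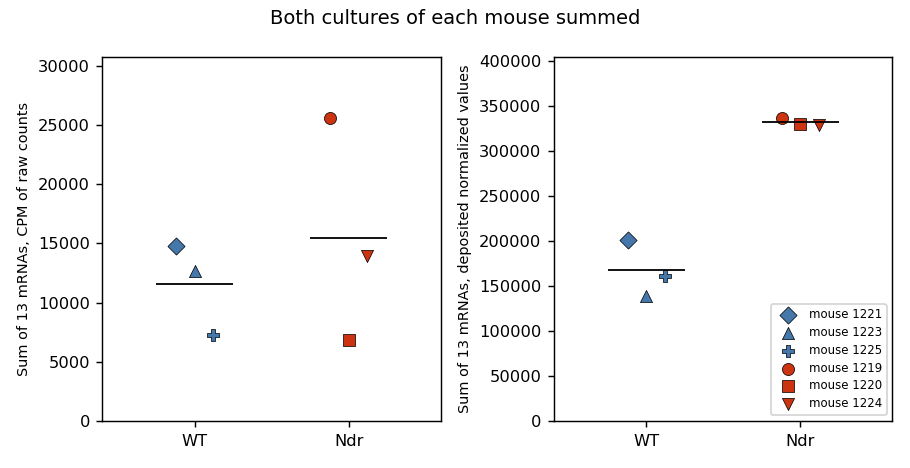
Sum of the 13 mRNAs per mouse with both cultures added, by genotype (x axis). The left panel is in TMM-scaled CPM of the raw counts and the right panel in the deposited normalized values. Symbols are mice and lines are means of 3. The genotypes overlap on the left, where mouse 1220 is lowest, and separate on the right, where the 3 Ndr mice lie between 329241 and 337264.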

How the data were processed

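RNA of 12 organoid cultures was analysed from tables the authors deposited. The raw counts are deposited reads per gene; featureCounts and the build GRCm39 are named in the submitters' processing notes, as is DESeq2 1.34.0. The sources used here do not give the aligner, annotation release, strand setting or handling of shared reads. The authors' second table holds normalized values (signal). Symbols and sequences came from GENCODE M21 (GRCm38), whose build differs, so no coordinates are given; 52093 of 53700 identifiers matched.

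All results start from raw counts (6708822 to 16030880 per library) unless named. In R 4.3.3, edgeR 4.0.16 (filterByExpr, TMM, robust quasi-likelihood F test) fitted 1 coefficient per group over 12 libraries (15014 genes, 8 residual degrees of freedom), and genotype over 6 mouse totals (15401 genes, 4 degrees). Adjusted p-values are Benjamini-Hochberg over all tested genes, threshold 0.05. Shares, composition and per-length levels are descriptions with no test. Of the 37 genes, 20 passed the filter: all mRNAs and rRNAs and 5 tRNAs. The fits were tested on simulated data. Sequence sharing was counted over 50-base words.

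Alternatives were DESeq2 1.42.0, RLE size factors, no filter, mitochondrial genes out of library sizes, and limma-trend (limma 3.58.1, pseudocount 1) on the normalized values. Further ones were the mouse as a block (region and interaction), date as a factor (genotype), and each library left out (each mouse for genotype over both regions). Summing nuclear copies and leaving out both libraries of mouse 1219 in the library fits were added after seeing the data. ComBat-seq came from sva 3.50.0. Cultures with the same number come from the same mouse and so are paired by design; their deviations from group means correlated from -0.339 (1220) to 0.451 (1225) over 15014 genes. The members and lists were chosen with earlier results of these data known. The naming rule was: all mRNAs and rRNAs, tRNAs with 10 or more counts in 3 libraries, and of each other list its 2 most abundant members where none was called.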

Additional observations from a re-analysis of the deposited data

How the results depend on the processing

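No mitochondrial transcript was called in any of the 7 comparisons under DESeq2, RLE size factors, no filter or mitochondrial genes out of library sizes. None was called with nuclear copies summed or with any library or mouse left out. Nor was any called with the mouse as a replicate block, fitted for region and interaction only, or with date as a factor, fitted for genotype only. The normalized table was the exception, with 9 (genotype, hilar) and 16 (genotype, both regions). With the replicate block, medians of the 13 mRNAs were -1.28 (WT region), -0.31 (Ndr region), -0.79 (both) and 0.96 (interaction), and the block changed no call.

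Genes called over the whole table moved from 0 to 44, 10, 124, 79, 2 and 4 with DESeq2 (genotype hilar, peripheral and both regions, Ndr region, region over both genotypes, interaction), and to 1446, 93, 7215, 9, 4 and 2 in the normalized table, where the hilar genotype median was 1.89. For genotype over both regions they moved to 5 with no filter and 7 with date as a factor.

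Leaving out 1 library at a time, the median of the 13 mRNAs ranged from -0.94 to 0.64 (genotype, peripheral), -1.31 to 0.44 (Ndr region) and 0.10 to 1.86 (interaction), 1 end each without Ndr peripheral 1219 (-0.94, 0.44 and 1.86), and the log2 share ratio from -0.93 to 0.70 and -1.19 to 0.52 in the first and second of these. Genes called ranged from 0 to 2, 0 to 4 and 0 to 7 (genotype peripheral, genotype over both regions, Ndr region). For genotype over both regions, here and in the next paragraph, 1 mouse with both its cultures was left out at a time.

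For mt-Co1 the sign turned within -1.01 to 0.84 (genotype, peripheral), -0.13 to 0.90 (both regions), -1.62 to 0.44 (Ndr region) and -0.19 to 1.87 (interaction). For mt-Nd3 it turned within -0.04 to 0.49 (genotype, hilar), -0.43 to 0.08 (Ndr region) and -0.19 to 0.34 (interaction). For mt-Rnr2 it turned within -0.81 to 0.41 (genotype, hilar), -0.39 to 0.39 (peripheral), -0.24 to 0.38 (both), -0.84 to 0.00 (WT region) and -0.95 to 0.26 (interaction). In the normalized table mt-Rnr2 turned to 0.71 (genotype, hilar) and 0.08 (interaction) and mt-Nd3 to -0.02 (genotype, peripheral); with date as a factor mt-Rnr2 turned to 0.55 (genotype, hilar).

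Without both libraries of mouse 1219 the medians were -0.94 (genotype, peripheral), 0.64 (Ndr region) and 2.03 (interaction); mt-Co1 was -1.01 and 0.68 in the first 2 of these, mt-Rnr2 -0.38 (genotype, peripheral) and 0.28 (interaction), and mt-Nd3 -0.04 (genotype, hilar) and -0.23 (interaction). With nuclear copies summed, the log2 per-length ratio of mt-Co3 to mt-Co1 went from -0.53 to 0.26 and of mt-Co2 to mt-Cytb from 0.18 to 1.19, since copies add to some genes only. The cause of the other changes was not tested. With 3 cultures a group, a typical mRNA had an SE of 0.657 to 0.671 in the comparisons of 2 groups of libraries, and differences as large as -1.43 (mt-Co1, WT region) missed an unadjusted p of 0.05 (0.0826, edgeR).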
